A study of Mus musculus with 12 samples.

Results

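The lung endothelium of mice lacking TET2 in endothelial cells was compared with that of mice with intact TET2, both after 20 weeks on a high-fat diet (HFD). The genes described are the 3939 that the deposited table for this comparison lists, of 9338 genes listed in any of the 4 tables of the series, and the libraries are 6 of 12. The table holds a gene only if its unadjusted p in the study's own test was under 0.05, which 3590 of the 18703 genes tested with adjustment met (19.2%), together with 349 genes that carried no adjusted p. WT HFD (n = 3 mice) were male C57Bl/6J TET2fl/fl mice without Cre, and KO HFD (n = 3 mice) were TET2fl/fl mice carrying Cdh5-CreERT2, a tamoxifen-inducible Cre driven by the endothelial cadherin promoter. Mice of both genotypes received tamoxifen at 40 mg/kg on 3 days, when aged between 6 and 8 weeks, and changed 1 week later to a diet with 60% of its calories from fat, while the chow groups used for the last comparison (n = 3 each) were fed 13% fat. RNA was sequenced from lung cells picked with CD31 microbeads after enzymatic digestion, so each library is a bulk sample enriched for endothelium and not a pure cell type. The Cre is driven in endothelial cells, so other cells that the beads retained are not its intended target.

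TET2 is a dioxygenase that oxidizes 5-methylcytosine in DNA and so takes part in removing DNA methylation. Endothelial cells line every vessel. In the lung most of them form the alveolar capillaries, which lie against the thin alveolar type 1 epithelium and share a basement membrane with it. Type I and type II interferons act through JAK-STAT signalling and IRF factors on response elements in the promoters of antiviral genes. The glycocalyx is the coat of proteoglycans and glycosaminoglycans that these cells carry on their luminal face.

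The sequences of 5 promoters are printed because they belong to genes that were lower in KO HFD and carry the motif searched for their group. They run from 250 bases before to 50 bases after the gene start and were taken from RefSeq on GRCm38.p6. Capitals mark a pair of GAAA with any 2 bases between them, the core of the interferon-stimulated response element, in the interferon genes and ACAGGAAG, an ETS factor core, in Egfl7. Both strands were searched, so a capital run can be the reverse complement, and overlapping matches are merged in Bst2.
Ifih1 (chr2:62646206-62646505, minus strand): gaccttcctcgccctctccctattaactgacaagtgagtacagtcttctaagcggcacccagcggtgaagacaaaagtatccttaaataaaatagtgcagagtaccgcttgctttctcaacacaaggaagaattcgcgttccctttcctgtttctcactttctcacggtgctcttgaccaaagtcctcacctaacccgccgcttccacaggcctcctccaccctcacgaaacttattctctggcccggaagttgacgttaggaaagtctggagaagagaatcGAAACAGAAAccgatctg
Gbp5 (chr3:142496684-142496983, plus strand): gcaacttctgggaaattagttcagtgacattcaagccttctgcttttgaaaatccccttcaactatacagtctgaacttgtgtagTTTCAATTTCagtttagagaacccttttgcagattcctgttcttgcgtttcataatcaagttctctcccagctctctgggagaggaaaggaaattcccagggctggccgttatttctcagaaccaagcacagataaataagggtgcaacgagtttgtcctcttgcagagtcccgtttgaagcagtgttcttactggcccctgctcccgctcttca
Ifitm3 (chr7:141010695-141010994, minus strand): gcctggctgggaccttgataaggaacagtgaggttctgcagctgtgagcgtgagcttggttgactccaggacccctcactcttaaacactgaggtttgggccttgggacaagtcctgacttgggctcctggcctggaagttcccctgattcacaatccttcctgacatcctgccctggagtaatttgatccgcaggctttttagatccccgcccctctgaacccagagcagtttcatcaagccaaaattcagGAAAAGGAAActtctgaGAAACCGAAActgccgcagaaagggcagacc
Bst2 (chr8:71537423-71537722, minus strand): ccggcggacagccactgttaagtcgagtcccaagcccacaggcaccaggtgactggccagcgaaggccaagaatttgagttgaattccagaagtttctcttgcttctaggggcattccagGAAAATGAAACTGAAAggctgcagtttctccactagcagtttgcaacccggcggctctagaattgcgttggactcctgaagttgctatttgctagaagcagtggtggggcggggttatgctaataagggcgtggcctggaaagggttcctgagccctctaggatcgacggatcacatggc
Egfl7 (chr2:26583615-26583914, plus strand): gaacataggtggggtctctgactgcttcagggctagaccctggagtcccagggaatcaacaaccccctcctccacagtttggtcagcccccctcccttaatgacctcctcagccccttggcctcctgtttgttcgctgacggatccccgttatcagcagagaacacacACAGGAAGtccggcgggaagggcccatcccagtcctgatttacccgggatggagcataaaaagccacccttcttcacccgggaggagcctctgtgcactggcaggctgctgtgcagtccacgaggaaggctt
Of the 10 interferon genes lower in KO HFD, 8 had a promoter available, and 5 of these (Bst2, Gbp5, Ifih1, Ifit1bl1 and Ifitm3) held this element. Counted by promoter, 6 of 9 held it, against 3.44% of the 32851 promoters of the genome. Of the 14 general endothelial genes lower in KO HFD, 6 had a promoter available, and only Egfl7 of these held ACAGGAAG. Counted by promoter, 2 of 8 held it, against 3.58% of all promoters. A further Egfl7 window with the match and a further Egfl7 window without it are not printed. A match describes the letters of the window and not a bound site.

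The HFD libraries held 38.1 to 56.8 M reads counted on genes, the deepest being WT HFD replicate 1. Values are normalized counts, that is raw counts divided by the size factor of the library, unless FPKM is written. A gene is called lower or higher where edgeR's quasi-likelihood test of the raw counts gave an unadjusted p under 0.05. By this rule 3241 of the 3939 listed genes were called (82.3%), 1542 lower (39.1%) and 1699 higher (43.1%) in KO HFD, and because the table was selected on the same contrast these shares are a background and not a result. After Benjamini-Hochberg adjustment over 18703 genes no gene passed by edgeR (lowest adjusted p 0.237), whereas 577 passed by DESeq2. The groups did not overlap for 2943 genes (74.7%), and with 3 libraries against 3 an exact permutation test could not give a two-sided p below 0.1. Several libraries stood apart. KO HFD replicate 1 held the highest count for 1135 of the 1699 genes called higher (66.8%), and without it 885 genes were called higher and 1212 lower. WT HFD replicate 1 held the highest count for 931 of the 1542 genes called lower (60.4%). Without it 1490 genes were called, the fewest with any 1 library left out. WT HFD replicate 3 exceeded every other library more than 3-fold for 9 genes called lower and for 25 listed genes that did not pass, macrophage genes among them. Tet2 is listed only between the WT diet groups. Its RNA thus did not meet an unadjusted p under 0.05 between the genotypes on either diet in the study's own test. The size of any loss of Tet2 RNA could not be checked here. Its level was 6.07, 6.32 and 6.71 FPKM in the WT HFD libraries and 4.73, 5.18 and 5.15 FPKM in the WT chow libraries. Its level in the KO libraries was not analysed here.

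Genes that define endothelial cells were lower in KO HFD, and none was higher. Of 71 genes on 6 endothelial lists 41 were listed (57.7%), all 41 lay below 0, 33 were called lower and the median log2 fold change was -1.02. Over all 3939 listed genes 47.8% lay below 0 and the median was 0.33. In bulk samples fewer cells of a type and less RNA per cell cannot be told apart. The general endothelial list had 17 of its 20 genes in the table, 14 of them called lower and 3 not passing, with log2 fold changes from -1.38 to -0.58. Their summed level was 1124 to 1874 FPKM in WT HFD and 578 to 1036 FPKM in KO HFD. The sums did not overlap, but they take in only listed genes, which were selected on this same contrast. Their separation was thus largely fixed and is no result. For 11 of the 17 single genes the groups did overlap. The other 6 had all KO HFD libraries below all WT HFD libraries, a share near the 35.8% of all listed genes.

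Egfl7, a secreted factor of endothelial cells that guides vessel formation, had 15709, 11175 and 8840 normalized counts in WT HFD and 6108, 3770 and 3862 in KO HFD. All KO HFD libraries lay below all WT HFD libraries (log2 fold change -1.38, SE 0.28, p 0.00129 by edgeR). Cdh5, the VE-cadherin of endothelial junctions and the gene whose promoter drives the Cre, had 50649, 39001 and 26136 normalized counts in WT HFD and 27999, 14396 and 14776 in KO HFD. KO HFD replicate 1 lay above WT HFD replicate 3 here, and the log2 fold change was -1.02 (SE 0.33, p 0.0171 by edgeR). Pecam1, which encodes CD31, the antigen used to pick the cells, went from 37845, 33857 and 22663 to 24768, 17329 and 17242 normalized counts (log2 fold change -0.67), and its groups overlapped as well. Icam2, an adhesion molecule of resting endothelium, was lower without overlap (10200, 8339 and 11235 against 6305, 4092 and 4171 normalized counts). Its log2 fold change was -1.03, close to the -1.02 of Cldn5, the claudin of endothelial tight junctions. The related transcription factors Sox17 (-1.23) and Sox18 (-1.38) were called lower too. The remaining 3 listed genes, Flt1, Emcn and Ptprb, did not pass, with log2 fold changes of -0.58, -0.74 and -0.86.

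Within KO HFD, replicate 1 was the highest library for all 17 general endothelial genes, all 9 general capillary genes and 8 of 9 arterial genes. Within WT HFD, replicate 3 was the lowest for 16 of 17, 9 of 9 and 9 of 9. The endothelial genes of a library thus stood high or low together within its group, and the part of this in the genotype difference was not tested. Leaving out 1 library in turn left 6 to 17 general endothelial genes called lower, the main count being 14 and the lowest without KO HFD replicate 2.

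General capillary genes were lower in KO HFD, and none was higher. The table holds 9 of 10, of which 8 were called lower, with a median log2 fold change of -1.28. Of the 9, 7 had all KO HFD libraries below all WT HFD libraries, against 35.8% of all listed genes. Aplnr, the apelin receptor, had 3069, 2298 and 1352 normalized counts in WT HFD and 756, 399 and 628 in KO HFD. The highest KO HFD library was thus below the lowest WT HFD library (log2 fold change -1.91, SE 0.35, p 0.00072 by edgeR). Gpihbp1, which carries lipoprotein lipase across capillary endothelium, had 6315, 4142 and 3433 against 1997, 1231 and 1679 normalized counts, a log2 fold change of -1.50. Cd93, Kit, Sema3c and Glp1r were lower by -1.32, -1.26, -1.28 and -1.37 on the log2 scale, and Plvap, the protein of fenestral and caveolar diaphragms, by -1.11 with overlapping libraries. Of 11 markers of aerocytes, the second type of alveolar capillary cell, only Ednrb and Nckap5 were listed and neither passed. Ednrb was at 6042, 4732 and 11358 normalized counts in WT HFD and 6140, 2574 and 2324 in KO HFD.

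Arterial genes were lower to a similar degree, with 9 of 13 listed, 7 called lower and a median log2 fold change of -1.04. Sema3g, a secreted semaphorin, had 16524, 11935 and 8500 normalized counts in WT HFD and 5944, 3642 and 4184 in KO HFD (log2 fold change -1.42, SE 0.29, p 0.00129 by edgeR), with no overlap. The gap junction gene Gja4 (-1.46), the chemokine gene Cxcl12 (-1.41) and the Notch target Hey1 (-1.44) also separated the groups. Gja5 and Edn1 did not pass. Of the 11 venous markers the one listed was Ephb4, a receptor of ephrin-B2, at 7177, 4996 and 3396 against 2165, 1689 and 1608 normalized counts (log2 fold change -1.51). Of 8 lymphatic markers 4 were listed and 3 called lower, Pdpn (-0.78), Reln (-0.75) and Flt4 (-0.90), whereas Lyve1 did not pass (-0.76).

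**Figure D1:**
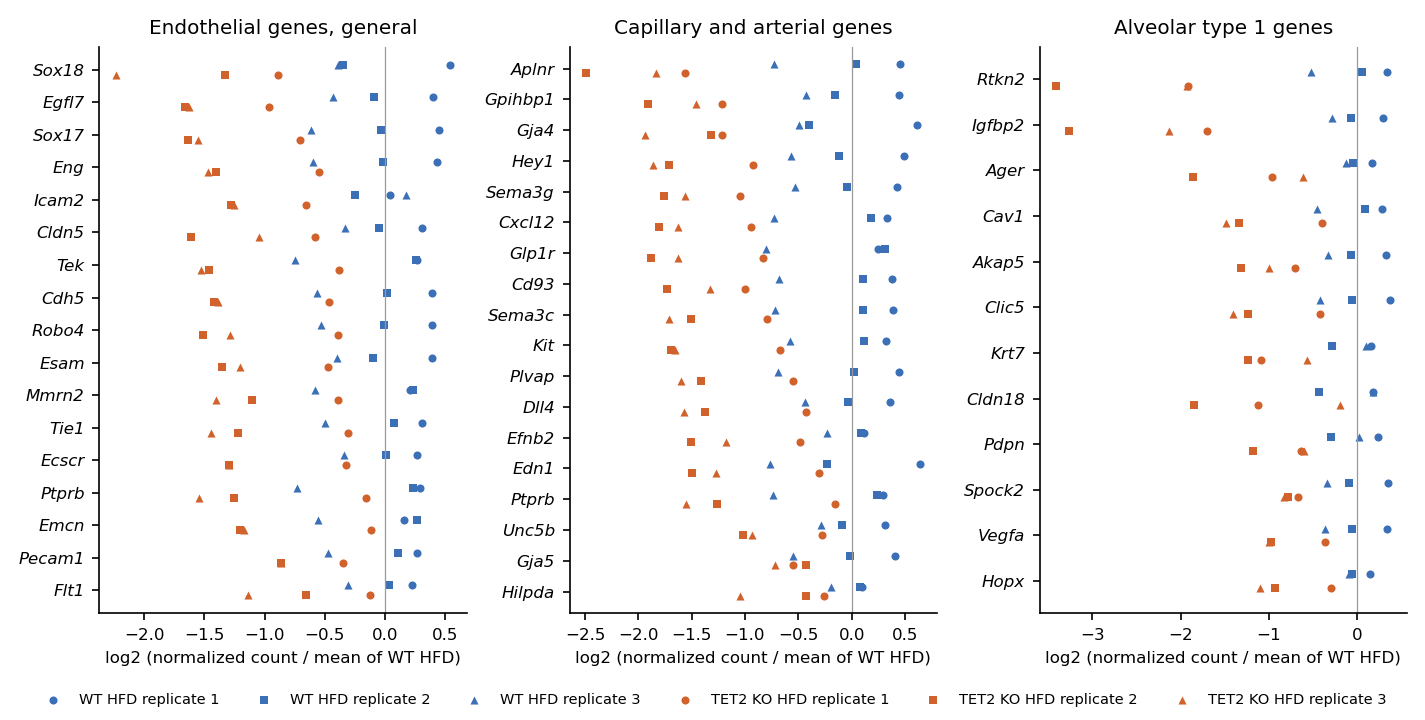
Normalized count of each listed general endothelial, capillary or arterial and alveolar type 1 gene in every HFD library, as log2 of its ratio to the WT HFD mean; blue symbols are WT HFD, orange symbols KO HFD, and the shape gives the replicate. The orange circles of KO HFD replicate 1 lie nearest to the WT HFD libraries for all 17 general endothelial genes. For 6 of these 17 all KO HFD libraries lie below all WT HFD libraries, as they do for 35.8% of all listed genes.

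Markers of alveolar type 1 cells, the flat epithelial cells of the gas exchange surface, were lower alongside the endothelial genes. The table holds 12 of 15, with 11 called lower (7 without KO HFD replicate 2 or WT HFD replicate 1) and a median log2 fold change of -0.95. Their summed level was 274 to 416 FPKM in WT HFD and 140 to 241 FPKM in KO HFD. This sum too is over listed genes only, whose selection on this contrast largely fixed its separation. Rtkn2, a marker of these cells, had 442, 362 and 243 normalized counts in WT HFD and 92.6, 32.9 and 91.7 in KO HFD (log2 fold change -2.27). Igfbp2, an insulin-like growth factor binding protein, showed a similar separation at 650, 507 and 436 against 163, 55.2 and 121 (log2 fold change -2.23, SE 0.38, p 0.00047 by edgeR). Ager, the receptor for advanced glycation end products and an abundant transcript of type 1 cells, had 4514, 3880 and 3672 against 2061, 1110 and 2625 normalized counts (log2 fold change -1.06). Cldn18, the claudin of alveolar junctions, did not pass (-0.90). Several genes of this list, such as Cav1 (-0.99), Clic5 (-0.95) and Vegfa (-0.75), are also expressed by endothelial cells. Type 1 cells are not the target of the Cre, and the part of carried-over epithelium in these values was not tested.

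Few markers of other cell types were listed. None of the 14 alveolar type 2, 18 fibroblast, 16 B cell, 16 neutrophil or 10 red cell markers was listed. Of 129 genes on 8 white cell lists 16 were listed (12.4%), with 10 called lower and 1 higher, and of 33 stromal genes 1 was listed (3.03%). For 24 unlisted cell type markers counts could be taken from the diet tables. None had p under 0.05 by edgeR (0 of 24, lowest p 0.0759, log2 fold changes -0.35 to 0.93), against 1 of all 421 unlisted genes with counts (0.238%). An unlisted gene had not passed this threshold in the study's own test of the same libraries. The 0 of 24 thus follows from the selection and is no result about these cell types. Other unlisted markers were not analysed here. Among the listed white cell genes Ccr2, the chemokine receptor of inflammatory monocytes, had 3103, 4567 and 4898 normalized counts in WT HFD and 1041, 2473 and 2576 in KO HFD (log2 fold change -1.05). Of 6 listed dendritic cell genes Bst2, Fscn1, Clec9a and Cd209a were called lower, Bst2 being an interferon-response gene as well. The other dendritic cell genes listed, Ccl17 (0.99) and Itgae (0.37), lay above 0 and did not pass. The platelet genes Itgb3 (0.45) and Gp1ba (0.83) were higher. Of the NK list Ncr1 (-1.14) and Klrk1 (-0.65) were listed and did not pass. Gata2, on the mast cell list and also an endothelial factor, was lower (-0.87). In the airways Bpifa1, a secreted protein of club cells, did not pass (1.20), and of 3 listed ciliated genes Tppp3 was lower (-0.80) and the tubulin gene Tubb4b higher (0.48). The mesothelial gene Msln did not pass (0.96), and the smooth muscle gene Cnn1 was higher at counts of at most 10.9.

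The macrophage complement genes depended on 1 library. C1qb had 882, 243 and 11321 normalized counts in WT HFD and 347, 621 and 611 in KO HFD, so that WT HFD replicate 3 alone was high. Its log2 fold change was -2.98 with that library and -0.10 without it, and C1qa moved from -2.56 to -0.24. The B cell attracting chemokine Cxcl13 was at 137, 8.46 and 3389 in WT HFD and 7.04, 42.5 and 43.7 in KO HFD, with log2 fold changes of -5.25 and -1.25. Wfdc17, Ccl24 and Wnt2, picked after their values were seen, went the same way, from -2.31, -3.25 and -3.09 with WT HFD replicate 3 to -0.33, 0.20 and -0.10 without it.

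Listed signalling and matrix genes of the vessel wall lay mostly below 0. Of 35 genes of the VEGF, angiopoietin and Notch pathways 14 were listed (40%, against 19.2% of all genes). Of these 13 were called lower, against 39.1% of all listed genes, and none higher (median log2 fold change -0.89). Leaving out 1 library in turn left 4 to 13 called lower, with 4 without WT HFD replicate 1 and 5 without KO HFD replicate 2 or 3. Vegfc, the ligand of lymphatic growth, had 1295, 1203 and 900 against 777, 716 and 570 normalized counts (log2 fold change -0.72), and Notch4, an endothelial Notch receptor, was lower by -1.11 on the log2 scale. Of 45 semaphorin, ephrin, slit and netrin genes 23 were listed, 20 lower and 2 higher, the 20 becoming 7 without WT HFD replicate 1, 8 without KO HFD replicate 2 and 10 without KO HFD replicate 3. Sema3a, a secreted repellent of axons and endothelial cells, had 177, 134 and 109 normalized counts in WT HFD and 45.3, 27.6 and 27.3 in KO HFD (log2 fold change -2.06, SE 0.33, p 0.00029 by edgeR). Sema4b (0.50) and the netrin receptor gene Unc5c (1.32) were the exceptions.

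The BMP and TGF-beta list had 12 of 40 genes listed, 11 lower (6 without WT HFD replicate 1, 7 without KO HFD replicate 2), and its members span the ligand Bmp6 (-1.11), the co-receptor Tgfbr3 (-0.48) and the target Id1 (-0.91). Id1 had 5188, 3295 and 3638 against 2628, 2038 and 1790 normalized counts, without overlap. Tgfb1, the ligand of the other branch, was higher (0.52), with overlap through KO HFD replicate 3. Of 28 vasoactive genes 12 were listed, 9 lower and none higher, with 4 lower without KO HFD replicate 2, 5 without WT HFD replicate 1 and 11 without KO HFD replicate 1 or WT HFD replicate 3. Ace, the angiotensin-converting enzyme of lung capillaries, had 85984, 73361 and 72659 normalized counts in WT HFD and 39206, 55063 and 44691 in KO HFD (log2 fold change -0.74, SE 0.17, p 0.00286 by edgeR). Thrombomodulin, encoded by Thbd, was at 61904, 44825 and 39017 against 26759, 20155 and 18119, a log2 fold change of -1.16. Ramp2, a subunit of the adrenomedullin receptor, was lower by -1.25 on the log2 scale. Npr3, the natriuretic peptide clearance receptor, was lower by -1.77 with overlapping libraries.

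Of 50 collagen and matrix genes 13 were listed, 10 lower and none higher. Lama3, a laminin chain of epithelial basement membranes, had 401, 365 and 636 against 166, 122 and 107 normalized counts (log2 fold change -1.82). Col4a3 and Col4a4, the collagen IV chains of the alveolar and glomerular membranes, were lower by -1.69 and -1.08 on the log2 scale, and Sparc, a collagen-binding matrix protein, by -1.20. Of 31 adhesion genes 12 were listed, 11 lower and 1, the integrin gene Itgb3, higher, and 6 were lower without KO HFD replicate 2 or 3. Cd99l2 (-0.57), Itga2 (-0.64) and Esam (-0.96) did not overlap between the groups. In the Wnt and Hippo list 11 of 43 were listed and 8 lower, among them the receptor gene Fzd4, at 8238, 6646 and 4525 against 3945, 2165 and 3593 normalized counts, the co-receptor gene Lrp5 (-0.65) and the YAP partner Tead4 (-1.25). Wnt3a was low throughout, at 46.9, 45.5 and 20.2 against 6.04, 7.44 and 15.3 normalized counts. The Wnt antagonist Sfrp2 was higher at counts of at most 30.6 (log2 fold change 1.75).

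Of 46 endothelial transcription factors 18 were listed, 13 lower (8 without KO HFD replicate 2) and 1 higher. Hoxb5 had 414, 317 and 270 against 197, 109 and 114 normalized counts (log2 fold change -1.25), and Hlx and Elk3 were each lower by -0.63 on the log2 scale. Mef2d, which activates muscle and vascular genes, was the one higher, at 16363, 19507 and 19092 against 37661, 33247 and 24173 (0.79). By DNA-binding family 12 of the 18 listed homeobox factors were lower and 3 higher. All 3 GATA, all 3 TEA and all 3 NFI factors were lower, against 39.1% of all listed genes. Higher were 7 of 9 bZIP, 8 of 14 ZBTB and 4 of 6 ETS factors, against 43.1% of all listed genes. The same held for 3 of 4 RHD and all 3 CUT factors. Leaving out KO HFD replicate 1 left 12 homeobox, 2 GATA, 3 TEA and 2 NFI factors lower. In that fit 0 bZIP, 4 ZBTB, 2 ETS, 1 RHD and 0 CUT factors were higher.

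Of 46 fatty acid and lipid genes 11 were listed, 6 lower (3 without WT HFD replicate 1) and 2 higher. A further 2 had counts in the diet tables without being listed, with log2 fold changes of 0.06 for Lpl, lipoprotein lipase, and 0.21 for its inhibitor Angptl4. Neither passed, an outcome that being unlisted largely fixed. Cd36, the fatty acid transporter of capillaries, had 55052, 47200 and 41523 normalized counts in WT HFD and 32276, 25114 and 24708 in KO HFD (log2 fold change -0.81, SE 0.17, p 0.00197 by edgeR). Fabp4, a fatty acid binding protein of capillaries and macrophages, was at 1698, 1764 and 3881 against 549, 1115 and 1218 (-1.35). Dgat1, which completes triglyceride synthesis, was higher at 3898, 5642 and 7284 against 12660, 13355 and 9536 (1.08), and Fasn, fatty acid synthase, by 0.43 on the log2 scale. Slc2a1, the glucose transporter GLUT1, was at 2973, 4078 and 3871 against 5435, 5494 and 5532 (0.59), whereas the glycolytic enzyme gene Pfkm was lower (-0.59). The xenobiotic list had 6 of 8 listed genes lower (3 without WT HFD replicate 1) and none higher, led by Sult1a1 (-1.17) and Cyp2b10 (-1.21).

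Few interferon-response genes were listed, and most of those listed were lower in KO HFD. Of 59 such genes 12 were listed (20.3%), a share near the 19.2% of all genes that the table's selection gave. A further 13 had counts in the diet tables without being listed, 7 lying below 0 and 6 above it with log2 fold changes from -0.53 to 0.41. None of these had p under 0.05 by edgeR (0 of 13, lowest p 0.0894), against 1 of all 421 unlisted genes with counts (0.238%). Unlisted genes had not passed this threshold in the study's own test, so the 0 of 13 follows from the selection. Of the 12 listed genes 10 were called lower and none higher, with a median log2 fold change of -0.65, and 10 had all KO HFD libraries below all WT HFD libraries, as 35.8% of all listed genes did. Bst2, encoding tetherin, which holds budding virions at the cell surface, had 3639, 2946 and 3217 normalized counts in WT HFD and 2057, 2131 and 2366 in KO HFD. Both groups were tight, and the log2 fold change was -0.58 (SE 0.15, p 0.0046 by edgeR). Ifih1, the cytosolic RNA sensor MDA5, was at 2198, 1800 and 1996 against 1040, 1441 and 1316 (log2 fold change -0.66, p 0.00559 by edgeR). Ifi44, an antiviral protein, had 724, 426 and 250 against 138, 235 and 174 normalized counts, the lowest WT HFD library lying just above the highest KO HFD library (-1.36, SE 0.39, p 0.00952 by edgeR). Ifitm3, which blocks viral fusion, was lower by -0.70 on the log2 scale, and Gbp5, a guanylate-binding protein induced by interferon gamma, had 787, 1090 and 762 against 436, 628 and 610 (-0.66). Xaf1, Oasl2, Usp18, Ifi27 and Ifit1bl1 were the other 5 called lower, with log2 fold changes from -0.74 to -0.39. Ifitm2 (-0.58) and Slfn8 (0.44) did not pass.

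In these genes the order of the KO HFD libraries was the reverse of that in endothelial genes. KO HFD replicate 1 was the lowest KO HFD library for 11 of the 12, and for the endothelial genes it was the highest. Leaving out 1 library in turn left 5 to 9 interferon genes called lower, with 5 without KO HFD replicate 1 or WT HFD replicate 1.

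Of 26 ligand, receptor and JAK-STAT genes 6 were listed, 4 higher and 2 lower. Leaving out 1 library in turn left 0 to 2 called higher, with 0 without WT HFD replicate 1, and 0 to 2 lower. Stat5a (0.71), Stat4 (0.68), the kinase Jak2 (0.40) and the interferon gamma receptor subunit Ifngr2 (0.34) were higher, and Irf2 (-0.34) and the feedback inhibitor Socs3 (-0.37) were lower. Irf2 had 5501, 6042 and 6245 against 4296, 4957 and 4844 normalized counts, without overlap. Stat4 overlapped, at 1132, 1409 and 831 against 2337, 1344 and 1709. No interferon ligand was listed. The RNA sensor Tlr3 was at 1015, 851 and 671 against 552, 442 and 349 (log2 fold change -0.92, SE 0.23, p 0.00418 by edgeR). Among 22 antigen presentation genes 6 were listed, and 2 passed, the immunoproteasome subunit Psmb9 (-0.46) and H2-T23, a non-classical class I molecule (-0.37), both lower.

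The study also named 12 genes of glycosaminoglycan and glycan metabolism. It chose them from these libraries, as genes that moved alike with TET2 loss on chow and with HFD in WT, a choice that used the WT HFD libraries and the chow genotypes, so their direction is not independent evidence here. The table holds 8 of them, all below 0, with 6 called lower (3 without KO HFD replicate 2, 4 without WT HFD replicate 1 or 2). B3gnt3, an N-acetylglucosaminyltransferase, had 1609, 1328 and 1056 normalized counts in WT HFD and 771, 611 and 515 in KO HFD (log2 fold change -1.07, SE 0.22, p 0.00139 by edgeR). St3gal2, a sialyltransferase, was lower by -0.64 on the log2 scale without overlap, and its relatives St3gal4 and St3gal6 by -0.69 and -0.56. Hyal2, a hyaluronidase anchored at the cell surface, had 4577, 2616 and 2499 against 2516, 1319 and 1137, with overlap through KO HFD replicate 1 (-0.96), and the heparan sulfate sulfatase gene Sgsh was lower by -0.52. Hgsnat (-0.71) and Hyal1 (-0.70) did not pass. On a wider list of 54 glycocalyx and proteoglycan genes 19 were listed, 14 lower and 3 higher, and leaving out 1 library in turn left 4 to 11 lower, the lowest without WT HFD replicate 1. Podxl, a sialomucin of the endothelial surface, was at 30607, 22799 and 14910 against 15808, 8720 and 7480 (-1.09). Agrn, a heparan sulfate proteoglycan of basement membranes, was lower by -0.75, while the syndecan gene Sdc4 (0.57) and the sulfotransferase gene Hs6st1 (0.49) were higher. The hyaluronan synthase gene Has2 was at or under 6.39 normalized counts in WT HFD and at 0 in every KO HFD library.

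**Figure D2:**
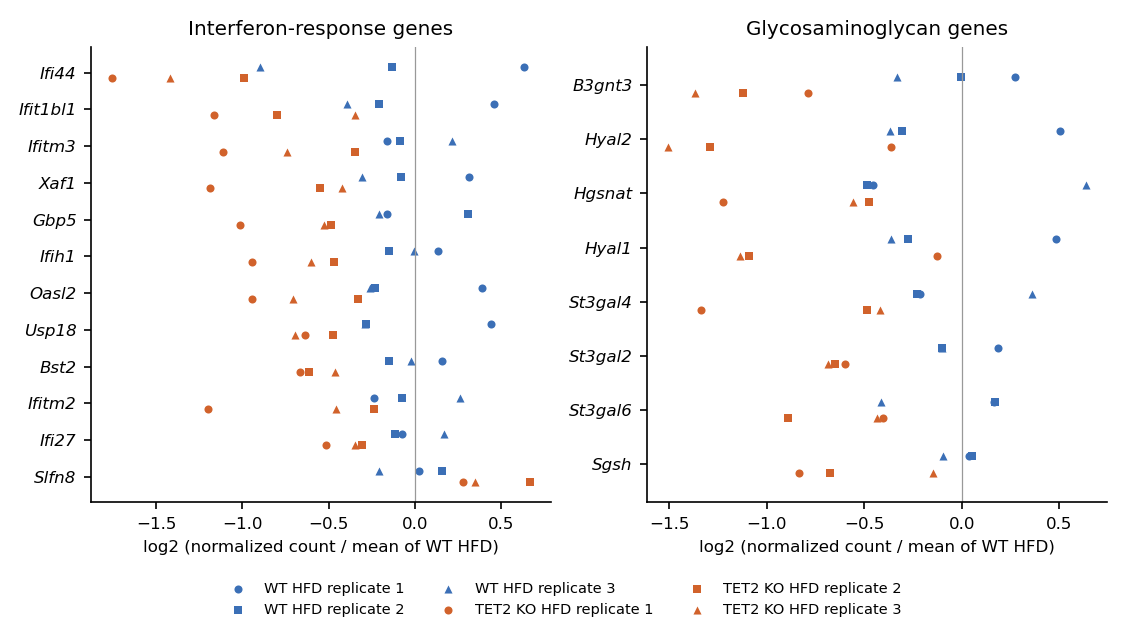
Normalized count of each listed interferon-response gene (left) and each listed glycosaminoglycan gene of the study (right) in every HFD library, as log2 of its ratio to the WT HFD mean, with blue for WT HFD, orange for KO HFD and the shape for the replicate. Of the 12 interferon-response genes 10 have all KO HFD libraries below all WT HFD libraries, as 35.8% of all listed genes do, and Slfn8 has them above.

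The listed genes of chromatin, RNA processing and NF-kappaB were mostly higher. Of 66 chromatin regulators 16 were listed (24.2%, against 19.2% of all genes), 15 higher and 1, the acetyltransferase gene Kat2b (-0.37), lower. Of all listed genes 43.1% were called higher. Chd7, a chromatin remodeller, had 5988, 8043 and 7543 normalized counts in WT HFD and 11726, 10967 and 10139 in KO HFD (log2 fold change 0.61, SE 0.16, p 0.0054 by edgeR). All KO HFD libraries were above all WT HFD libraries. Kmt2e (0.61), the H3K79 methyltransferase gene Dot1l (0.59) and the H3K27 demethylase gene Kdm6b (0.69) separated the groups too. Leaving out 1 library in turn left 5 to 15 of the chromatin genes called higher, with 5 without KO HFD replicate 2, WT HFD replicate 1 or WT HFD replicate 3 and 6 without KO HFD replicate 1. Of 80 splicing and RNA helicase genes 18 were listed (22.5%) and 12 passed. All 18 had every KO HFD library above every WT HFD library, as 38.9% of all listed genes did. The splicing scaffold Srrm2 was at 40347, 36036 and 34743 against 58648, 54479 and 52034 (0.57, SE 0.13, p 0.00313 by edgeR). Hnrnph1 (0.52), Snrnp70 (0.40) and Srsf6 (0.34) were smaller differences of the same direction, and with 1 library left out 2 to 11 genes of the list were called higher, 2 without WT HFD replicate 3 and 3 without KO HFD replicate 1, KO HFD replicate 2 or WT HFD replicate 1.

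Of 26 NF-kappaB and TNF genes 4 were listed (15.4%, against 19.2% of all genes), and all 4 were higher. Leaving out 1 library in turn left 1 to 4 called higher, with 1 without KO HFD replicate 1 or WT HFD replicate 1 and 2 without KO HFD replicate 2 or WT HFD replicate 3. Nfkb2, the precursor of p52, had 7858, 9189 and 10341 normalized counts in WT HFD and 17859, 16794 and 12115 in KO HFD (0.77, SE 0.19, p 0.00431 by edgeR). Its partner gene Relb (0.45), the co-regulator gene Bcl3 (0.74) and Rel (0.51) were higher by less. Of 44 cytokine and chemokine genes 8 were listed, Cxcl12, Tnfsf10 and Cxcl13 lower and Tgfb1 higher. Of 22 circadian genes 5 were listed and 4 were higher (0 without WT HFD replicate 1, 1 without any other library but KO HFD replicate 3), led by Per2 (830, 831 and 1143 against 1404, 1597 and 1224, log2 fold change 0.59). Irs2, the insulin receptor substrate, was at 8756, 14089 and 11736 against 20202, 19296 and 14537 (0.64).

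Few nuclear genes of the mitochondria were listed, and most of those listed lay below 0. Of 78 mitochondrial ribosomal protein genes 14 were listed (17.9%, against 19.2% of all genes). All 14 had every KO HFD library below every WT HFD library, as 35.8% of all listed genes did, and 10 passed. Mrpl58, for example, was at 847, 748 and 781 against 429, 468 and 607 normalized counts (-0.66). Of 98 nuclear respiratory chain genes 12 were listed (12.2%) and 7 were lower, with Ndufaf3 at -0.52 and Ndufa8 at -0.43. The 10 and 7 genes called lower became 3 to 12 and 2 to 8 with 1 library left out, the higher number of each only without KO HFD replicate 3 and at most 4 and 3 without any other library. The mitochondrial ribosomal RNAs mt-Rnr1 (1.26) and mt-Rnr2 (0.78), the only listed of 15 genes of the mitochondrial genome, were higher. Here mt-Rnr1 was at 7974, 8768 and 11512 against 29527, 27321 and 10745, so KO HFD replicate 3 lay within WT HFD.

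Metabolic and housekeeping lists had few listed genes, in both directions. Of 37 matrix protease genes 8 were listed, with 6 lower, led by Mmp14 (670, 568 and 600 against 377, 309 and 395 normalized counts, log2 fold change -0.77) and Timp2 (-0.87). Of 33 coagulation and complement genes 7 were listed, 4 lower (2 without KO HFD replicate 2 or 3) and 1 higher, with the tissue factor pathway inhibitor gene Tfpi at -0.68 and the complement gene C2 at 0.92. The insulin and IGF list had 2 lower and 2 higher of 5 listed. Of 48 cell cycle genes 8 were listed, and the G1 cyclin gene Ccnd1 (-0.71) was lower while Ccne1 (0.73) and Cdk2 (0.52) were higher.

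Genes that respond to tissue dissociation, a sign of handling, had 5 of 28 listed, and 4 of these were lower (1 without KO HFD replicate 2, 2 or 3 without any other library). Jun had 58340, 52756 and 50261 normalized counts in WT HFD and 45353, 32534 and 27265 in KO HFD (log2 fold change -0.62), and Rhob was lower by -0.55 on the log2 scale, both without overlap. The heat shock list had 2 lower and 1 higher of 4 listed, the redox list 2 lower and 1 higher of 4, the cholesterol list 1 lower and 2 higher of 4, and the glycolysis and hypoxia list 3 lower and 1 higher of 4. Gpx7, a peroxidase of the endoplasmic reticulum, was at 179, 164 and 151 against 89.5, 74.4 and 61.1 (-1.13). Epas1, which encodes HIF-2 alpha, was lower by -0.82 on the log2 scale with overlapping libraries.

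Large families were divided. Of 407 Zfp zinc finger genes 75 were listed, 38 lower and 24 higher, and of 390 solute carriers 69 were listed, 22 lower and 33 higher. With 1 library left out these became 12 to 31 and 7 to 30 zinc finger genes and 7 to 21 and 10 to 39 solute carriers, the lowest without WT HFD replicate 1 except for the 7 higher zinc finger genes without KO HFD replicate 1. Slc1a5, the glutamine transporter, was at 7015, 7367 and 6748 against 12535, 10514 and 9231 normalized counts (0.61). Of 93 cytosolic ribosomal protein genes 2 were listed, of 50 proteasome subunits 3, of 106 histone genes 5 (4 lower and 1 higher) and of 34 tRNA synthetases 7 (4 lower and 1 higher). With 1 library left out 2 to 3 histone genes and 1 to 4 tRNA synthetases were lower, the latter 1 without KO HFD replicate 2.

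**Figure D3:**
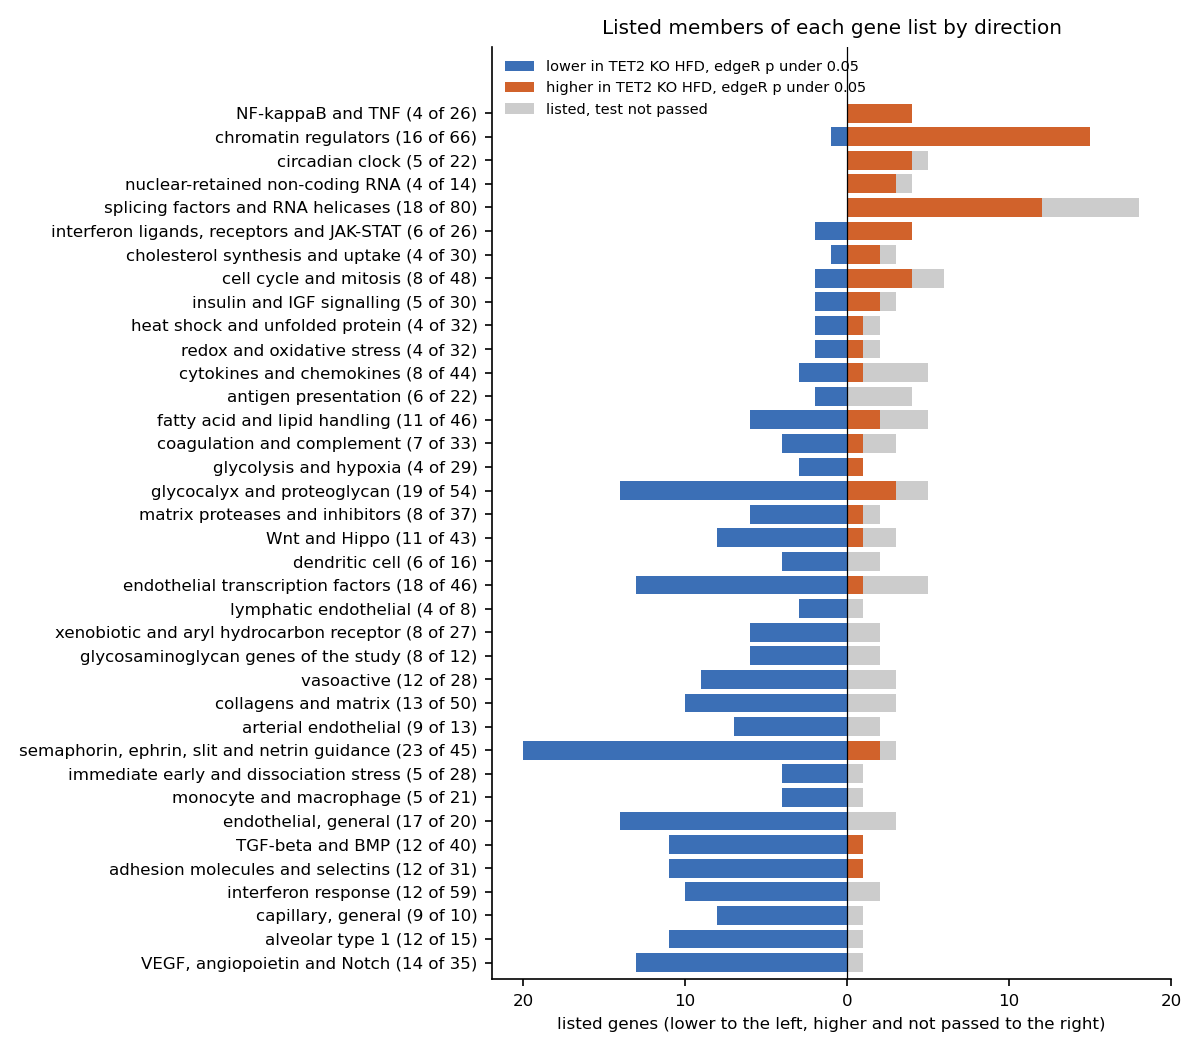
Listed genes of each cell type or pathway list with at least 4 listed genes; bars to the left count genes called lower in KO HFD, orange bars to the right genes called higher, and grey bars listed genes that did not pass. The VEGF, angiopoietin and Notch list has 13 of 14 listed genes lower, against 39.1% of all listed genes. The chromatin list has 15 of 16 higher, against 43.1%. With 1 library left out these became 4 to 13 and 5 to 15.

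The genes called higher differed from those called lower in kind as well as in direction. Genes called lower had a median of 719 normalized counts in their higher group and a median length of 3976 bases, against 151 normalized counts and 2932 bases for genes called higher. Of the protein-coding genes called, 41.5% were higher. Among the other classes, 157 of 203 listed TEC genes (an Ensembl class that awaits experimental evidence), 143 of 187 antisense genes, 114 of 173 lincRNAs, 113 of 143 processed pseudogenes and 21 of 23 miRNA genes were called higher. Without KO HFD replicate 1 these became 92, 82, 66, 66 and 13. Many of these features overlap a protein-coding gene. On the same strand 126 of the 203 TEC genes and all 38 sense intronic genes did so, 173 of the 187 antisense genes overlapped on the opposite strand only, and since the strand setting of the counting is not given in the sources used here, their reads cannot be told apart from those of the host gene. Malat1, the abundant nuclear non-coding RNA, was at 72483, 87700 and 72159 against 112350, 114490 and 108384 normalized counts (log2 fold change 0.53, SE 0.14, p 0.00609 by edgeR), with tight KO HFD libraries. Mir17hg, the host transcript of a microRNA cluster, was at 809, 893 and 759 against 1514, 1430 and 1456 (0.84, SE 0.13, p 0.00032 by edgeR).

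**Figure D4:**
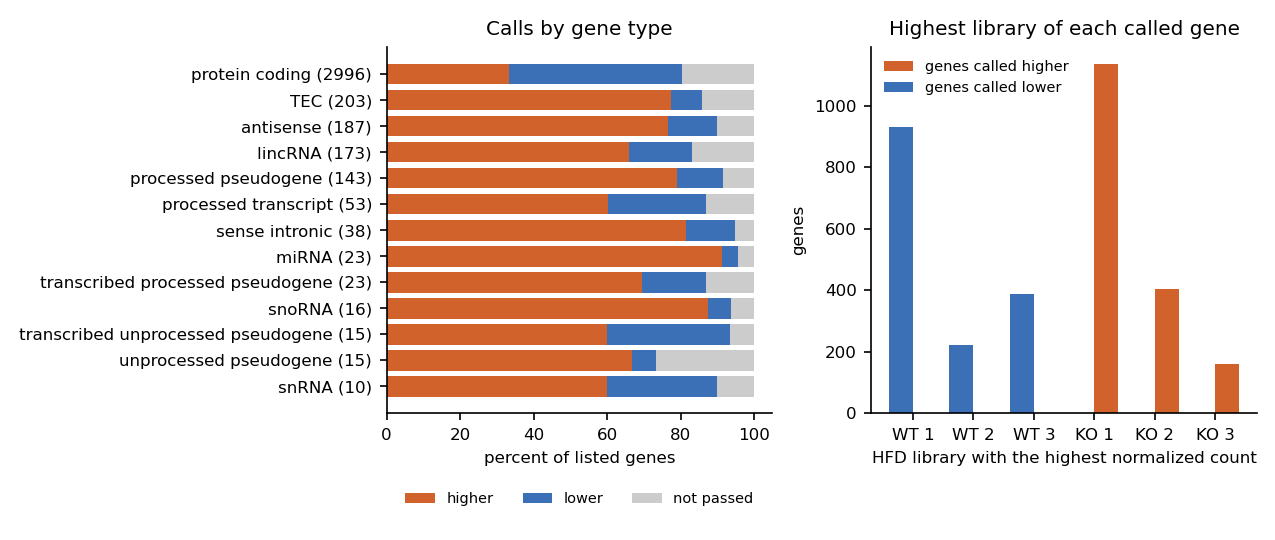
Left, percent of the listed genes of each annotated class called higher, lower or not passing in KO HFD; right, number of genes called higher (orange) or lower (blue) whose highest normalized count is in each HFD library. KO HFD replicate 1 is the highest library for 1135 of 1699 genes called higher, and WT HFD replicate 1 for 931 of 1542 called lower.

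The genes with the lowest p at a mean of 50 or more normalized counts and no overlap were named in each direction. On the lower side Ccdc160 had 59.3, 58.1 and 57.5 normalized counts in WT HFD and 13.1, 13.8 and 14.2 in KO HFD, so the spread within each group was small beside the difference (log2 fold change -2.08, p 0.00012 by edgeR). Grrp1 (-1.68), Tmem221 (-1.27), Lama3, Sema3a, the metalloproteinase gene Adam15 (-0.94), the death receptor gene Fas (-0.89), Wfdc1 (-1.34), Igfbp2 and Mansc1 (-1.16) completed the 10. On the higher side the neuronal CDK5 activator gene Cdk5r1 was at 364, 374 and 400 against 996, 729 and 753 (1.12). Clcf1, a cytokine of the IL-6 family, had 4208, 3986 and 3344 against 8028, 7267 and 6801 normalized counts (0.94). Gm26115 (1.08), annotated as a miRNA at chr19:4215402-4215488, lies within the span of Clcf1 at chr19:4214238-4223490, so the pair may share reads. Mir17hg, Gm43660 (1.02), AI480526 (1.15), C920009B18Rik (0.99), Gm28370 (1.09), the calcium pump gene Atp2a1 (1.09) and Gm37176 (1.24) were the other 7.

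KO HFD replicate 1 was the highest library for 186 of the 292 genes called higher with a log2 fold change over 2, no larger a share than the 1135 of 1699 over all genes called higher. In some genes it lay far above the other libraries, and 3 of these, Efna2, Adamts4 and Slc16a11, are given as examples chosen after their values were seen. Efna2, an ephrin ligand, had 44.7, 47.6 and 45.8 normalized counts in WT HFD and 887, 212 and 51.3 in KO HFD. Its log2 fold change was 3.06 with KO HFD replicate 1 and 1.52 without it. Adamts4, an aggrecan-degrading protease, was at 20.5, 29.6 and 10.6 against 195, 64.8 and 17.5, with log2 fold changes of 2.19 and 1.02. Slc16a11, a monocarboxylate transporter gene, was at 289, 323 and 317 against 950, 405 and 443, with 0.95 and 0.45.

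Among the TET genes, Tet1 was low and lower still in KO HFD, at 282, 313 and 206 against 204, 147 and 154 normalized counts (log2 fold change -0.67, SE 0.23, p 0.0231 by edgeR), without overlap. Its FPKM was 0.32 to 0.484 in WT HFD and 0.227 to 0.313 in KO HFD. Ogt, the O-GlcNAc transferase that binds TET proteins, was higher (0.34). Tet3 was not analysed here.

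Levels on chow were set beside these as FPKM, which is scaled to gene length and library size. Cdh5 averaged 74.0 ± 38.4 FPKM in WT chow, 220 ± 70.4 in WT HFD and 108 ± 43.1 in KO HFD (SD, n = 3 each). KO HFD thus lay between both WT groups, with libraries overlapping those of each. Ace averaged 114 ± 48.3, 351 ± 34.9 and 209 ± 37.2 FPKM in that order, and Malat1 417 ± 45.7, 266 ± 29.9 and 382 ± 9.73 FPKM, again with the KO HFD mean between the WT means. The diet and genotype comparisons share the WT HFD libraries, so this order is no independent result.

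The genotypes were also compared on chow, with 6 libraries that the HFD comparison does not use. Of the 3939 genes, 461 were listed for the genotypes on both diets, which is 11.7% of the HFD table and 35.5% of the chow table. For 457 of these (99.1%) the difference had opposite signs, 225 being higher in KO chow and lower in KO HFD and 232 the reverse. The exceptions were Dynlt1c, Gm7514, Loxl2 and Slfn8. With edgeR p under 0.05 required on both diets, 245 of 246 had opposite signs. The genotype by diet interaction passed for 529 of 554 genes with counts in all libraries (95.5%) by edgeR with Benjamini-Hochberg adjustment, and since a gene entered only by being listed in several tables, nothing is read from this share.

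All 8 listed glycosaminoglycan genes of the study lay above 0 (KO against WT) on chow and below 0 on HFD, where Hgsnat and Hyal1 did not pass, and their direction on chow was fixed by the study's choice of them. Of the 6 interferon genes listed on both diets 5 lay above 0 on chow and below 0 on HFD. Icam2 was at 39.7, 33.3 and 61.0 FPKM in WT chow, 96.7, 60.2 and 61.9 in KO chow, 129, 105 and 141 in WT HFD and 78.5, 51.5 and 52.7 in KO HFD. The chow genotypes overlapped narrowly, at WT chow replicate 3, and the HFD genotypes did not. B3gnt3 was at 3.78, 4.43 and 6.14 FPKM in WT chow, 13.5, 6.8 and 4.53 in KO chow, 12.7, 10.4 and 8.28 in WT HFD and 5.98, 4.79 and 4.06 in KO HFD. Here KO chow replicate 1 was far above the other chow libraries. Ifi44 showed the same library as high on chow, at 0.145, 0.133 and 0.322 FPKM in WT chow and 0.921, 0.26 and 0.239 in KO chow. Adamts4 went the other way, averaging 0.372 ± 0.0307 FPKM in WT chow and 0.133 ± 0.0129 in KO chow, against 0.101 ± 0.0471 in WT HFD and 0.457 ± 0.453 in KO HFD (SD, n = 3 each).

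**Figure D5:**
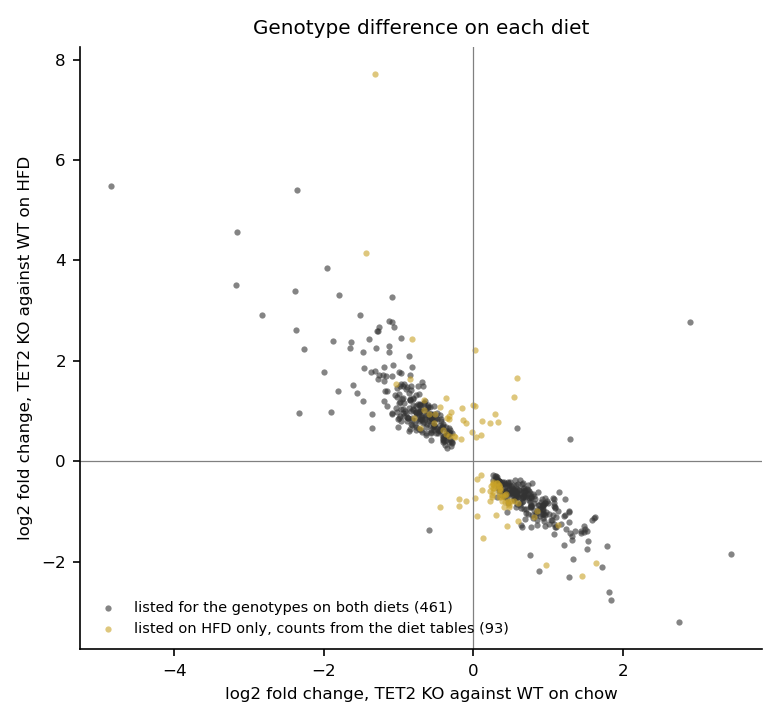
Log2 fold change of KO against WT on chow (horizontal) and on HFD (vertical) for the 554 genes with counts in all libraries, dark points being listed for the genotypes on both diets and yellow points on HFD only. Of the dark points 457 of 461 lie on opposite sides of 0 on the horizontal and the vertical axis.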

How the data were processed

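CD31-selected lung cells of 12 mice (4 groups of 3) were sequenced after poly(A) selection. The authors used HISAT2 on mm10 and featureCounts for the counts, and deposited, for each comparison, only genes with an unadjusted DESeq2 p under 0.05. Versions and the strand setting are not given in the sources used here. Per the file headers each deposited table holds raw counts, normalized counts (a signal, counts over 1 size factor per library) and FPKM for every library, and gene lengths. The deposited p-value and adjusted p columns were used only to test the filter and to recover the number of genes adjusted, and the deposited log2 fold changes were not used. Normalized counts were recomputed from raw counts with the authors' size factors, and depth was 38.1 to 56.8 M counted reads per HFD library.

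Raw counts of the 3939 listed genes were tested with edgeR 4.0.16 (glmQLFit and glmQLFTest, R 4.3.3) with the authors' size factors as offsets, with p-values adjusted over 18703 genes by Benjamini-Hochberg, using only the HFD libraries. The dispersion was estimated on listed genes alone. DESeq2 1.42.0 and limma 3.58.1 (log2 of the value plus a pseudocount of 1) were alternatives, with TMM, library totals, a minimum mean of 10 normalized counts, a replicate block and 1 library left out. The interaction of genotype and diet was fitted by edgeR on 554 genes. On simulated counts for this comparison 160 of 200 changed genes among 3939 were recovered with 9 false calls, and 4.73% of unchanged genes had p under 0.05. These counts had a dispersion set in advance, no selection of genes and an adjustment over 3939 genes. The share recovered therefore checks the code and does not describe the power in the data, where no gene passed after adjustment over 18703 genes. Labels give separate mice as replicates.

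The members and the 55 lists (23 cell type and 32 pathway lists) and 9 gene families were chosen with earlier results of these data known. Named genes were up to 10 per direction with adjusted p under 0.05 or, since none passed, the lowest unadjusted p, among genes whose groups did not overlap and whose higher group averaged 50 normalized counts or more. Beside these, up to 4 genes per list and direction with the lowest p, defining markers, the TET genes and genes the study names were eligible. Promoters and motifs came from RefSeq tables on GRCm38.p6. Python 3.11.15, pandas 2.3.3, numpy 2.4.6 and matplotlib 3.10.9 were used. Some single-gene results are not reported here.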

Additional observations from a re-analysis of the deposited data

Results flagged for a closer look

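The genotype difference (KO minus WT, log2) was tested for its interaction with diet by edgeR with Benjamini-Hochberg adjustment. The interaction passed for 529 of the 554 genes with counts in all libraries. Of the 461 genes listed for the genotypes on both diets 457 lay on opposite sides of 0. A gene entered these counts only through the tables that list it. Passing was thus largely fixed by that selection, and nothing is read from the 529. The genes also share the same libraries and are not independent. On the difference of the differences (HFD minus chow), the endothelial genes Icam2 (-1.74), Sox18 (-2.83), Gja4 (-2.54) and Ramp2 (-2.43), the interferon-response genes Ifi44 (-2.61) and Gbp5 (-1.46), the glycan genes B3gnt3 (-1.87) and Hyal2 (-1.79) and the monocyte gene Ccr2 (-2.06) were below 0. Adamts4 (3.66), Slc16a11 (2.30) and Kdm2b (1.47) were above 0. KO HFD replicate 1 was the highest KO HFD library for Adamts4 and Slc16a11, whose differences on HFD were 2.19 and 0.95 with it and 1.02 and 0.45 without it. KO chow replicate 1 stood above the other KO chow libraries for Sox18 (71.4 against 18.2 and 25.3 FPKM), Gja4 (17.6 against 4.81 and 5.43), Ramp2 (92.7 against 32.8 and 32.5), Hyal2 (24.5 against 11.5 and 11.1), B3gnt3 (13.5 against 6.8 and 4.53) and Ifi44 (0.921 against 0.26 and 0.239). Without it the interaction of these 6 genes was -2.01, -1.69, -1.74, -1.31, -1.33 and -1.68 in that order, a comparison chosen after seeing the data. Adjusted p was 0.0147 to 0.0417 by edgeR, and 495 of all 554 genes passed in that fit. These 6 genes were listed for the genotypes on both diets with opposite signs, so their passing was largely fixed by the selection and is no further support.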

How the results depend on the processing

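The 3241 calls at unadjusted p depend on the threshold and on single libraries. Of the listed genes 0 passed at adjusted p under 0.05 by edgeR (577 by DESeq2, chosen after seeing the data), 1165 passed with an absolute log2 fold change over 1 (795 higher and 370 lower), and 1490 to 2849 were called when 1 library was left out, 1490 without WT HFD replicate 1, 1676 without KO HFD replicate 2, 2097 without KO HFD replicate 1 (885 higher, 1212 lower) and 2849 without KO HFD replicate 3. With 1 library left out 6 to 17 general endothelial, 6 to 9 capillary, 5 to 9 arterial, 7 to 11 alveolar type 1 and 5 to 9 interferon genes were called lower, and 5 to 15 chromatin and 2 to 11 splicing genes higher. At adjusted p under 0.05 each of these 7 counts was 0. The number of genes passing the interaction was 495 to 527 with 1 library left out, 495 without KO chow replicate 1. The median log2 fold change of all listed genes was 0.33, 0.27 with TMM and -0.28 with genes under a mean of 10 normalized counts left out. Replicate numbers did not pair the libraries (correlations of the deviations 0.14, -0.04 and 0), and with the replicate number as a block 2923 genes were called and 5 splicing genes higher. Of 228 values of a set of 38 named genes with 1 library left out 194 kept their side of the threshold. Of 266 values of this set under other settings 257 did, and none of either reversed. The set is only a part of the genes named above, among which Ccl24 changed sign without WT HFD replicate 3. The files hold listed genes only, which limits every count to that selection, and the depth of 38.1 to 56.8 M reads leaves genes of few counts, such as Has2, at or near 0 in single libraries.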
